A study of Arabidopsis thaliana with 6 samples.

Results

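Aquaporins are channel proteins of the major intrinsic protein family that let water, and in some members small uncharged solutes, cross membranes. The genes described here are 10 Arabidopsis thaliana loci given as a list: the plasma membrane intrinsic proteins (PIPs) PIP1A, PIP1B, PIP1C, PIP2A, PIP2B, RD28 and PIP3, and the tonoplast intrinsic proteins (TIPs) GAMMA-TIP, DELTA-TIP and TIP2;3. They were chosen by locus tag, and 9 of the 10 had a usable value among 26551 loci measured. The list was drawn up with earlier results of these data known. TIP2;3 (AT5G47450) had no well-formed row in any of the 6 libraries, because rows of genes whose symbol holds a semicolon are empty in the deposited tables, and it was not analysed here.

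The libraries were made from poly(A)-selected RNA of Col-0 wild-type seedlings, 6 days old, kept in shaken medium under long days. In the DMMTA group dimethylmonothioarsenate, a thiolated and methylated arsenic compound, was present at 15 µM during the last 6 h, and in the control group at 0 µM. Each group held 3 libraries, called biological replicates in the labels. The deposited values rested on an estimated 66158000 to 134539000 reads per library. Each measured aquaporin of the list rested on about 375 to 58325 reads in a library. Levels are TPM, that is, deposited RPKM added up over all coding sequences of each locus, then rescaled to 1000000 per library. Summed markers of both leaf and root were well above 0 in every library, as given further on.

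PIPs sit mainly in the plasma membrane and TIPs in the vacuolar membrane, so that together they set how readily water moves into a cell and on into its vacuole. PIP2 proteins are efficient water channels, whereas PIP1 proteins often reach the plasma membrane only as heterotetramers with PIP2 partners. In roots, PIPs carry much of the cell-to-cell part of water uptake, and their activity is lowered by phosphorylation changes, internalisation and reactive oxygen species. The pore is lined by a pair of conserved Asn-Pro-Ala boxes, which meet in the middle of the membrane.

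The coding sequence around the second of these boxes is shown to let the genes be told apart, since it lies within 1 exon in all 10 genes. Sequences are from the RefSeq genome and annotation of build TAIR10.1, 5′ to 3′ on the coding strand, with the 9 bases of the Asn-Pro-Ala codons in capitals. The build of the deposited files is not given in the sources used here, so these coordinates describe the reference only.
PIP1A, chr3:22734849-22734881, plus strand: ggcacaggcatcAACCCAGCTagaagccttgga
PIP1B, chr2:18911445-18911477, plus strand: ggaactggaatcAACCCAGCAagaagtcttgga
PIP1C, chr1:226213-226245, minus strand: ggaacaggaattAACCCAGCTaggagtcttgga
PIP2A, chr3:19804158-19804190, minus strand: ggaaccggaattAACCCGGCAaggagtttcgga
PIP2B, chr2:15613884-15613916, minus strand: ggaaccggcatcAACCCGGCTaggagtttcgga
RD28, chr2:15618654-15618686, plus strand: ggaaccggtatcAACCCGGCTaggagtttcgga
PIP3, chr4:16709671-16709703, plus strand: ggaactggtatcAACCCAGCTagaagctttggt
GAMMA-TIP, chr2:15446163-15446195, plus strand: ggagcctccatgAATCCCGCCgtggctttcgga
DELTA-TIP, chr3:5506612-5506644, plus strand: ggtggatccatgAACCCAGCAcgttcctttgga
TIP2;3, chr5:19248653-19248685, minus strand: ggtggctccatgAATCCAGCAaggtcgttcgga

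Both boxes were found in the first annotated transcript model of each of the 10 genes. In the 7 PIP genes the second box follows a glycine-threonine-glycine-isoleucine stretch in the lines above, and in the 3 TIP genes a serine-methionine pair. In these 33 bases PIP2B and RD28 differed by 1 substitution, C9T (PIP2B base first, counted from 1 at the 5′ end of the printed stretch), and around the first box they did not differ. Over the whole coding sequence these 2 genes had 94.8% identical bases (813 of 858), with a longest identical run of 242 bases. They are also neighbours on chromosome 2, on opposite strands and 2612 bases apart, with no annotated gene between them. Of the 100-base windows of each, 18.8% occur in the other, so reads could be divided between them and their separate levels are uncertain. No window of that length in the other 8 genes was found in the coding sequence of another locus. The next closest pair, PIP1A and PIP1B, had 87.6% identical bases.

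All 9 measured aquaporins of the list fell in DMMTA. The folds ranged from 1.54 for PIP1C to 6.77 for RD28, and in all 9 the 3 DMMTA libraries lay below the 3 control libraries. By limma on log2(TPM + 0.5), with Benjamini-Hochberg adjusted p under 0.05 over all 18813 loci tested, 10.5% of loci fell and 17.4% rose, against 9 and 0 of 9 here. A fall of at least 1 on the log2 scale was called in 3.24% of loci and in 5 of the 9 aquaporins. The median log2 fold change was -1.08 over these 9 genes and 0.04 over all loci tested. In 18.6% of all loci tested the groups did not overlap and DMMTA was the lower. Among the 6539 tested loci at least as abundant as RD28, the least abundant of the 9, 8.72% fell. Because earlier results of these data were known when the list was chosen, these shares are a description and no test of the list. These samples are bulk RNA of seedlings, so fewer cells that express a gene and less RNA per cell cannot be told apart.

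**Figure D1:**
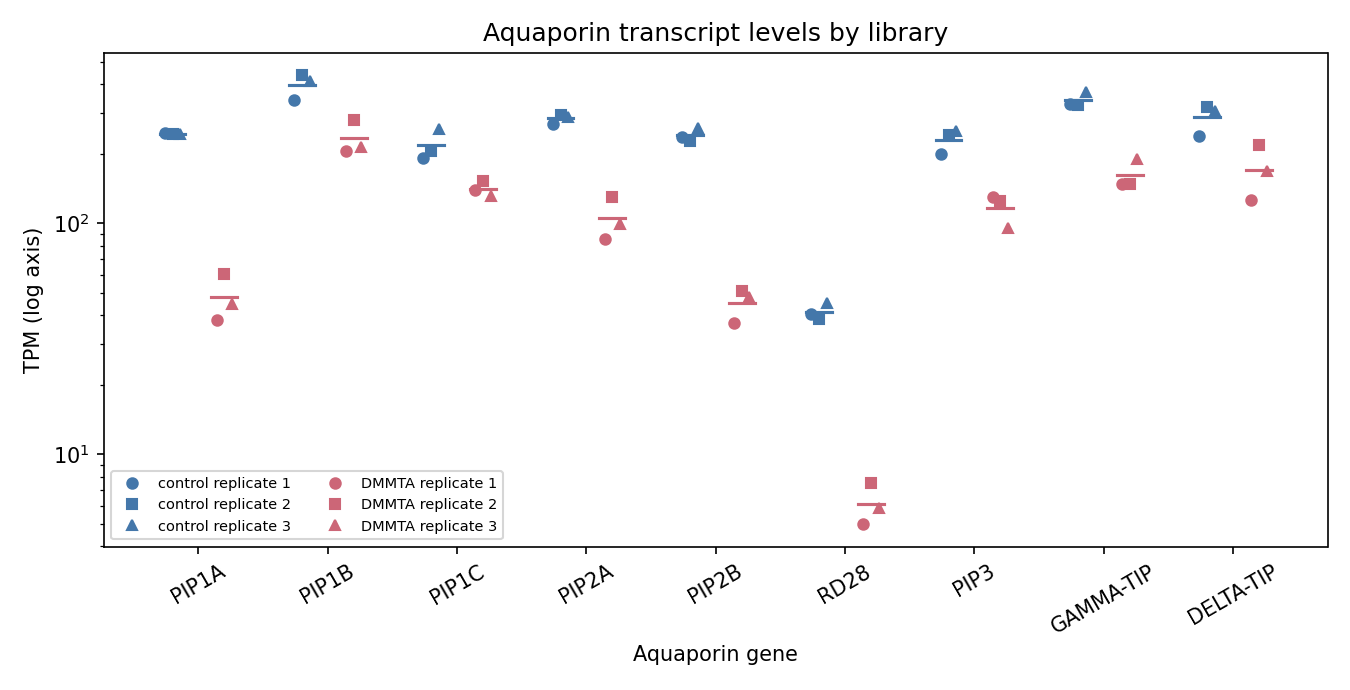
Level of each of the 9 measured aquaporins in TPM (log axis) in the 3 control libraries (blue) and the 3 DMMTA libraries (red), with a symbol for each replicate and a bar at the group mean. In every gene the DMMTA points lie below the control points, and the gap is widest for RD28, PIP2B and PIP1A.

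In the PIP1 subfamily the 3 genes did not fall by like amounts. PIP1A (AT3G61430, also PIP1;1) was at 246, 243 and 244 TPM in control replicates 1 to 3 and at 38.1, 60.6 and 45.0 TPM in the DMMTA replicates. It went from 244 ± 1.83 to 47.9 ± 11.5 TPM (mean ± SD, n = 3 per group), a 5.10-fold fall with a log2 fold change of -2.37 ± 0.15 SE (limma adjusted p = 2.33e-05). The control libraries were almost level for this gene, and DMMTA replicate 2 was the highest of its group.

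PIP1B (AT2G45960, also PIP1;2), a major PIP of leaf and root, was the most abundant of the 9 in both groups by levels summed over coding sequences. It was at 341, 437 and 415 TPM in the control libraries and at 205, 281 and 214 TPM in the DMMTA libraries, a 1.71-fold fall (log2 fold change -0.78 ± 0.15 SE, limma adjusted p = 0.00485). That call was lost when both replicate 3 libraries were left out (adjusted p = 0.0747). PIP1C (AT1G01620, also PIP1;3) was at 192, 206 and 255 TPM in control and at 139, 153 and 131 TPM in DMMTA, the smallest fall of the 9 (log2 fold change -0.61 ± 0.12 SE, limma adjusted p = 0.00666). Its lowest control library stood above its highest DMMTA library.

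PIP1A therefore lost ground to its relatives within the same libraries. The ratio of PIP1A to PIP1B was 0.556 to 0.722 in the control libraries and 0.186 to 0.216 in the DMMTA libraries. The ratio of PIP1A to PIP1C went from 0.956 to 1.28 in control to 0.274 to 0.397 in DMMTA. The ranges did not overlap in either case, whereas those of PIP1B to PIP1C did. Such ratios were compared for all 10 pairs within a subfamily, and an exact two-sided permutation test of 3 against 3 libraries can go no lower than p = 0.1, the value of all 8 pairs whose ranges were apart (adjusted p = 0.125).

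Of the PIP2 genes, PIP2B and RD28 fell furthest. PIP2B (AT2G37170, also PIP2;2), a water channel found mainly in roots, was at 237, 226 and 260 TPM in control and at 37.1, 50.9 and 47.8 TPM in DMMTA. It went from 241 ± 17.02 to 45.3 ± 7.26 TPM, a 5.32-fold fall (log2 fold change -2.41 ± 0.13 SE, limma adjusted p = 1.07e-05). RD28 (AT2G37180, also PIP2;3), first described as a gene responsive to desiccation, was at 40.5, 38.4 and 45.4 TPM in control and at 4.98, 7.53 and 5.86 TPM in DMMTA. Its fall of 6.77-fold was the largest of the 9 (log2 fold change -2.68 ± 0.15 SE, limma adjusted p = 1.30e-05). With the near-identical PIP2B and RD28 summed as 1 locus, the log2 fold change was -2.46 (adjusted p = 1.07e-05). The ratio of PIP2B to RD28 was 5.72 to 5.90 in control and 6.76 to 8.16 in DMMTA.

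The remaining PIP2 genes kept more of their control level. PIP2A (AT3G53420, also PIP2;1), a channel of root and guard cells that is regulated by phosphorylation, was at 270, 294 and 289 TPM in control and at 85.5, 130 and 99.6 TPM in DMMTA. It fell 2.71-fold (log2 fold change -1.45 ± 0.15 SE, limma adjusted p = 1.79e-04). PIP3 (AT4G35100, also PIP2;7) was at 199, 240 and 252 TPM in control and at 131, 125 and 95.8 TPM in DMMTA. It fell 1.97-fold (log2 fold change -0.98 ± 0.14 SE, limma adjusted p = 0.00127), and its DMMTA replicate 1, unlike for most of the other genes, was the highest of the group. The ratio of PIP2A to PIP3 went from 1.15 to 1.36 in control to 0.655 to 1.04 in DMMTA.

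Upstream sequence is shown for the 3 genes that fell more than 5-fold, as a record of what lies before their annotated starts. Each stretch is the 250 bases before the start of the gene in TAIR10.1, 5′ to 3′ on the gene's strand, and capitals mark any match to the motifs named next.
RD28, chr2:15617385-15617634, plus strand: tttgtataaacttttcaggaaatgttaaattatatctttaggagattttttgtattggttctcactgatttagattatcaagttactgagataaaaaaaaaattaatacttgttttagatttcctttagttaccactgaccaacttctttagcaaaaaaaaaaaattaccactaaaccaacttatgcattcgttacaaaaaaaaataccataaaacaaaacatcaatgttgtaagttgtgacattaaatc
PIP2B, chr2:15615023-15615272, minus strand: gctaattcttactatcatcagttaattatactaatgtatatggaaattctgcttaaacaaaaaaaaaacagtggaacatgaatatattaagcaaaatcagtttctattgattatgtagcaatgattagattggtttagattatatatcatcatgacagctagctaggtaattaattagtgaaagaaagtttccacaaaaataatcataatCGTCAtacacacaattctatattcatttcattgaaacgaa
PIP1A, chr3:22732993-22733242, plus strand: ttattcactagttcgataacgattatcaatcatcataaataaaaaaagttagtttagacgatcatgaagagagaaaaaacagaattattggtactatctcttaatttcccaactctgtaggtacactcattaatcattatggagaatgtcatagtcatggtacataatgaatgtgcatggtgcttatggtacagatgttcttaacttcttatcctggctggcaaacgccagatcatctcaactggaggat

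A set of 5 short motifs was searched on both strands in the 250 bases before all 10 genes and before 27443 protein-coding genes. TTGAC is the core of the WRKY binding site, ACGTG of abscisic acid response elements, CCGAC of the dehydration-responsive element, TGACG of TGA factor sites and GAANNTTC of heat shock elements. TTGAC overlaps TGACG where a G follows it. TTGAC lay before 3 of the 10 genes (PIP1C, PIP2A and PIP3) and before 44.9% of all genes. ACGTG lay before GAMMA-TIP alone of the 10, and before 22.9% of all genes. CCGAC lay before PIP1C and GAMMA-TIP, against 11.97% of all genes, and GAANNTTC before PIP3 and TIP2;3, against 9.55%. TGACG lay before PIP2B, with its match starting 40 bases ahead of the gene, and before 18.6% of all genes. None of the 5 motifs was found in the printed stretches of RD28 and PIP1A.

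Both measured tonoplast genes of the list fell, by 1.68-fold and 2.11-fold. GAMMA-TIP (AT2G36830, also TIP1;1), an abundant vacuolar water channel that also passes hydrogen peroxide and urea, was at 327, 325 and 372 TPM in control and at 148, 147 and 190 TPM in DMMTA. It fell 2.11-fold (log2 fold change -1.08 ± 0.12 SE, limma adjusted p = 3.49e-04). DELTA-TIP (AT3G16240, also TIP2;1), which also passes ammonia and urea, was at 239, 317 and 307 TPM in control and at 126, 217 and 169 TPM in DMMTA. It fell 1.68-fold (log2 fold change -0.77 ± 0.19 SE, limma adjusted p = 0.0190), with the closest approach of the groups among the 9. The DELTA-TIP call did not hold with control replicate 2 left out (adjusted p = 0.0508), nor with control replicate 3 (0.0663), DMMTA replicate 3 (0.0580) or both replicate 3 libraries left out (0.148).

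**Figure D2:**
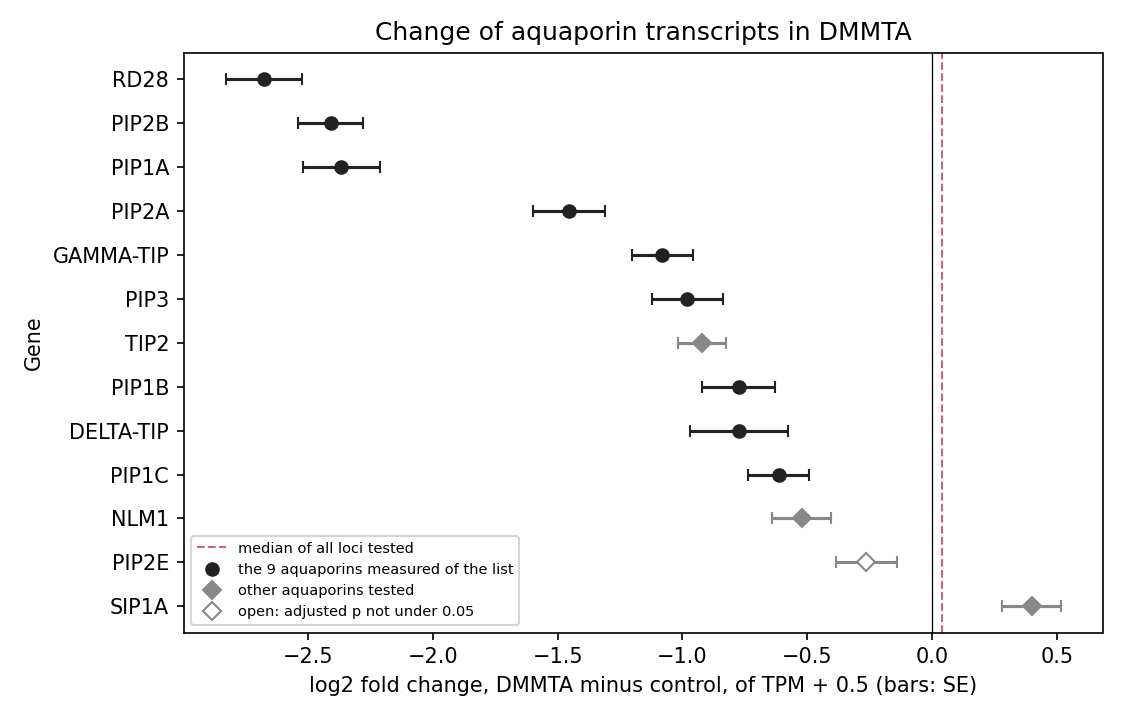
Log2 fold change of TPM + 0.5 in DMMTA minus control, with its SE, for the 9 measured aquaporins (black circles) and the 4 other aquaporins tested (grey diamonds, open where the adjusted p was not under 0.05), and the median of all loci tested (dashed line, 0.04). RD28, PIP2B and PIP1A lie between -2.37 and -2.68, the remaining genes of the list between -0.61 and -1.45, and only SIP1A lies above 0.

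The measured genes of the list were then summed by subfamily per library, as a description with no test. PIP2E (133 TPM in control and 111 TPM in DMMTA on average) and TIP2 (858 and 453 TPM) are not in these sums. They are described further on. The 3 PIP1 genes went from 860 ± 70.9 to 422 ± 62.1 TPM, which is 49.1% of control. The 4 PIP2 genes went from 797 ± 49.3 to 273 ± 34.4 TPM, or 34.3% of control. The 2 TIP genes went from 629 ± 57.5 to 333 ± 50.9 TPM, or 52.9% of control. All 9 genes made up 0.209%, 0.233% and 0.244% of the summed TPM of the control libraries and 0.0915%, 0.117% and 0.0998% of that of the DMMTA libraries. Within the list, the ratio of summed PIP to summed TIP was 2.59 to 2.70 in the control libraries. It was 1.78 to 2.34 in the DMMTA libraries, without overlap. With PIP2E and TIP2 left out, it is not the ratio of all PIPs to all TIPs.

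**Figure D3:**
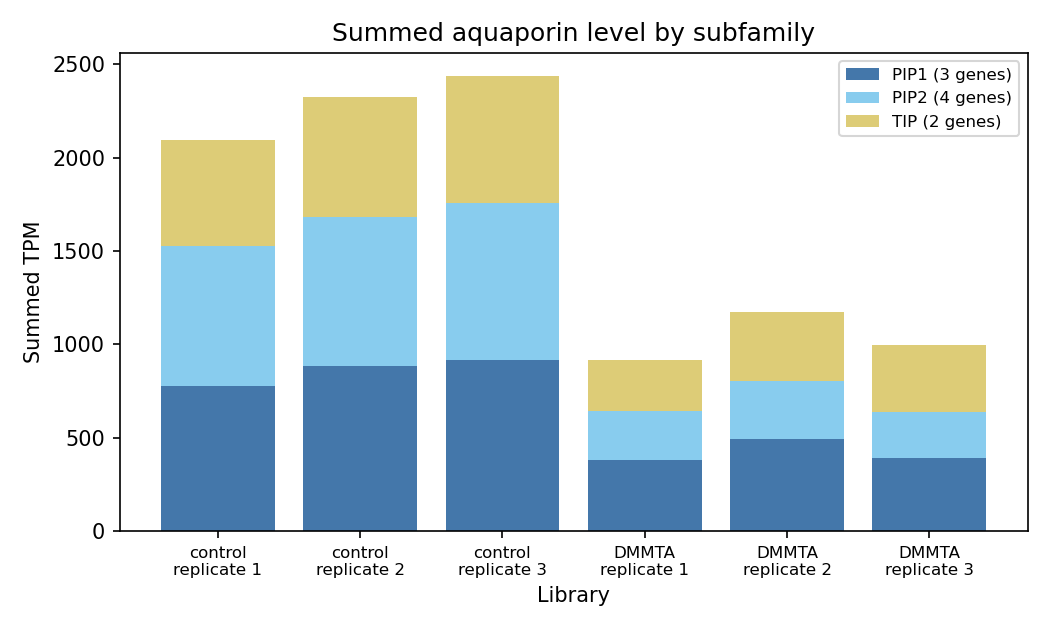
Summed TPM of the listed PIP1 (3 genes), PIP2 (4 genes) and TIP (2 genes) aquaporins with a value in each of the 6 libraries, as stacked bars. PIP2E and TIP2, measured but not of the list, are left out. The total is 2093 to 2439 TPM in control and 915 to 1171 TPM in DMMTA, and the PIP2 part shrinks the most.

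The order of the levels changed with these unequal falls. In control it ran PIP1B, GAMMA-TIP, DELTA-TIP, PIP2A, PIP1A, PIP2B, PIP3, PIP1C and RD28. In DMMTA it ran PIP1B, DELTA-TIP, GAMMA-TIP, PIP1C, PIP3, PIP2A, PIP1A, PIP2B and RD28. The ranges of neighbours in the control order overlapped except between GAMMA-TIP and DELTA-TIP, between PIP2A and PIP1A and between PIP1C and RD28. In DMMTA they overlapped except between PIP1C and PIP3, between PIP2A and PIP1A and between PIP2B and RD28. Both orders rest on levels summed over coding sequences, of which PIP1B has 3 and GAMMA-TIP and DELTA-TIP 1 each. Per coding sequence, PIP1B was at 152 to 163 RPKM on average in control, below GAMMA-TIP (409) and DELTA-TIP (344).

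DMMTA replicate 2 was the highest of its group in 7 of the 9 genes and DMMTA replicate 1 the lowest in 6. Such counts were not taken over all loci, so a shift of the whole library cannot be told apart. Control replicate 3 was the highest of its group in 5 genes and the lowest in none. Where a locus had several coding sequences, they moved together. The ratio of mean RPKM in DMMTA to that in control was 0.548 to 0.550 in the 3 rows of PIP1B, 0.599 and 0.609 in the 2 rows of PIP1C and 0.176 in both rows of PIP2B. These rows share most of their sequence and, by the divided reads in the tables, their reads too. Over the 6 libraries the log2 levels of any 2 of the 9 genes had a Pearson correlation of 0.81 to 1.00, which is given as a description, since the 6 libraries fall into 2 groups.

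Of the 35 aquaporin loci of the species, 14 had a usable row, and the 21 without one all carry a symbol with a semicolon. Beside the 9 genes above these were PIP2E, TIP2, BETA-TIP, NLM1 and SIP1A. TIP2 (AT3G26520, also TIP1;2), the closest relative of GAMMA-TIP, was the most abundant aquaporin measured, at 799, 913 and 863 TPM in control and 434, 442 and 483 TPM in DMMTA. It fell 1.89-fold (log2 fold change -0.92 ± 0.10 SE, limma adjusted p = 2.35e-04), without overlap of the groups. PIP2E (AT2G39010, also PIP2;6), a plasma membrane channel of the PIP2 group, was at 134, 142 and 123 TPM in control and 93.2, 119 and 121 TPM in DMMTA. It did not pass the test (log2 fold change -0.26 ± 0.12 SE, limma adjusted p = 0.143). NLM1 (AT4G19030, also NIP1;1), a NOD26-like channel known to let arsenite into roots, fell 1.45-fold, from 33.2 ± 4.17 to 22.8 ± 1.17 TPM (limma adjusted p = 0.0110).

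SIP1A (AT3G04090), a small basic intrinsic protein of the endoplasmic reticulum, was the only aquaporin tested that rose. It was at 82.0, 84.0 and 64.7 TPM in control and at 95.8, 105 and 102 TPM in DMMTA (log2 fold change 0.40 ± 0.12 SE, limma adjusted p = 0.0349). That call was lost without each DMMTA library in turn (adjusted p = 0.0644 to 0.115), without both replicate 3 libraries (0.132) and by limma-voom (0.0535). BETA-TIP, a seed aquaporin, was at 0 in 4 of the 6 libraries, at most 0.157 TPM, and was not tested.

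Genes that act on aquaporins were called in both directions. Of 8 tested regulators of PIP trafficking, phosphorylation or degradation, 2 rose and 1 fell (median log2 fold change 0.24), near the shares of all loci, of which 17.4% rose and 10.5% fell. SYP121, a syntaxin that delivers PIPs to the plasma membrane, rose 2.14-fold, from 59.0 ± 9.71 to 126 ± 12.1 TPM (limma adjusted p = 4.74e-04). RMA2, a membrane-anchored ubiquitin ligase, fell 1.68-fold, from 22.1 ± 1.52 to 13.2 ± 3.28 TPM (limma adjusted p = 0.0152), a call lost without both replicate 3 libraries (adjusted p = 0.0762).

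Proton pumps energise the same membranes. Of 8 tested plasma membrane H+-ATPases, 2 fell and 0 rose (median log2 fold change -0.28), where 10.5% of all loci fell and 17.4% rose. The main root pump HA2 (also AHA2) was at 416, 393 and 233 TPM in control and at 189, 214 and 183 TPM in DMMTA, with control replicate 3 close to the DMMTA libraries. It fell 1.78-fold (limma adjusted p = 0.0218). Omitting DMMTA replicate 1 raised that value to 0.0665, DMMTA replicate 3 to 0.0782, control replicate 1 to 0.0598 and control replicate 2 to 0.0585, each past the threshold. The other plasma membrane pump that fell, HA7, was close to the threshold (limma adjusted p = 0.0476), and its groups overlapped. Of 12 tested subunits of vacuolar proton pumps, 2 rose and 0 fell (median log2 fold change 0.26), which is also near the shares of all loci. AT3G42050, annotated as subunit H of the vacuolar ATPase, rose 1.37-fold, from 194 ± 30.6 to 265 ± 4.67 TPM (limma adjusted p = 0.0237), a call lost without each DMMTA library (adjusted p = 0.0645 to 0.0853) or both replicate 3 libraries (0.0826).

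The 3 loci whose profile over the 6 libraries was most like the mean profile of the 9 aquaporins were MSRB4, GLYI4 and ZFP4 (Pearson r of log2 levels 0.998, 0.998 and 0.998 over 6 libraries). MSRB4, a methionine sulfoxide reductase, fell 6.42-fold, from 15.4 ± 2.86 to 2.40 ± 0.804 TPM, GLYI4, of the glyoxalase family, fell 6.73-fold and ZFP4, a zinc finger protein, 2.03-fold. Of 18804 other loci, 637 had r above 0.95, and the value mostly measures the difference between the groups.

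Most markers of root hairs and endodermis fell in the same libraries, where 10.5% of all loci fell and 17.4% rose. In the root hair list 8 of 9 tested markers fell and 0 rose, and their summed level went from 169 to 200 TPM in control to 47.0 to 62.6 TPM in DMMTA. In the endodermis list 5 of 7 tested fell and 0 rose. The summed level of that list was 106 to 110 TPM in control and 27.8 to 60.4 TPM in DMMTA. The transcription factors SCR and MYB36 of that list did not pass the test and differed in direction. SCR went from 8.90 TPM on average in control to 7.46 TPM in DMMTA (limma adjusted p = 0.284). MYB36 was higher in DMMTA, at 7.05 TPM against 4.98 TPM in control (limma adjusted p = 0.0656). Of 8 vascular markers 2 fell and 0 rose, and their summed level went from 211 to 241 TPM to 181 to 191 TPM. Among 6 leaf mesophyll markers 1 rose and 1 fell, with sums of 17492 to 20093 TPM in control and 15740 to 17891 TPM in DMMTA. Most of this mesophyll sum was RBCS1A, at 13944 TPM on average in control and 12314 TPM in DMMTA (limma adjusted p = 0.354). The counts of the mesophyll list are near the shares of all loci. Those of the vascular list rest on few genes, and their difference from the 10.5% that fell and 17.4% that rose was not tested. None of 5 guard cell markers passed the test (median log2 fold change -0.01), with sums of 75.4 to 113 TPM in control and 107 to 186 TPM in DMMTA. Most of the guard cell sum was AT1G22690, at 77.1 TPM on average in control and 129 TPM in DMMTA (limma adjusted p = 0.0507). No marker was at 0 in all libraries, and the part of these tissues in the aquaporin result was not tested.

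**Figure D4:**
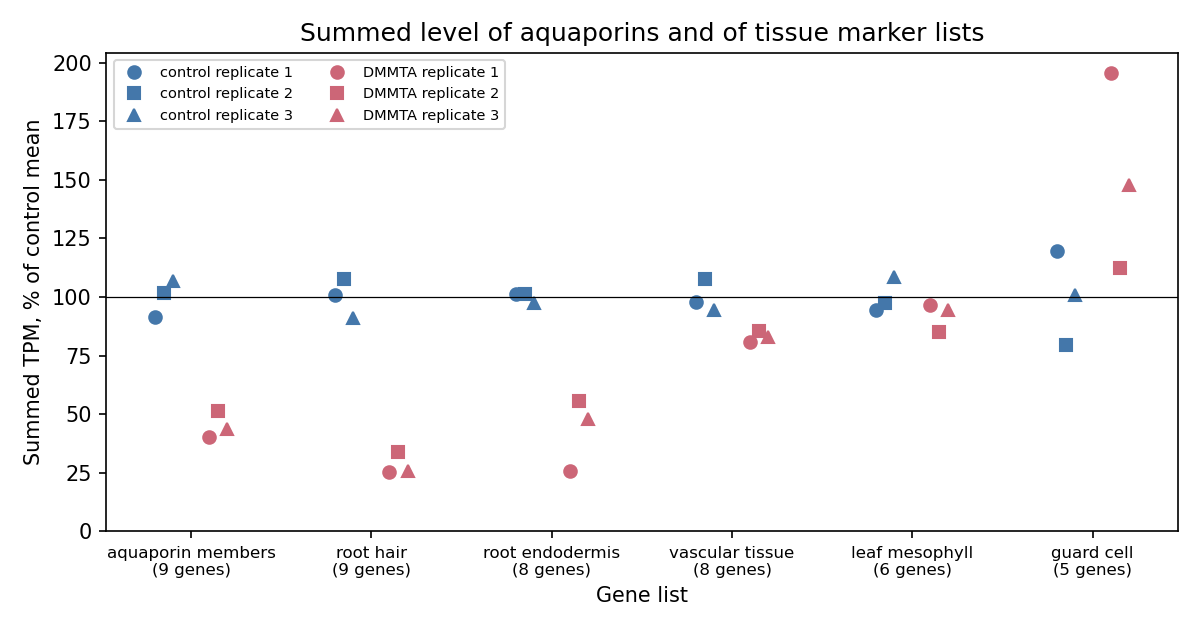
Summed TPM of the 9 measured aquaporins of the list and of 5 tissue marker lists in each library. Values are percent of the control mean of each list, with a symbol for each replicate. The aquaporins stand at 40.0% to 51.2% in the DMMTA libraries, the root hair markers at 25.4% to 33.8%, the endodermis markers at 25.6% to 55.7%, the vascular markers at 80.9% to 85.4%, the leaf mesophyll markers at 84.9% to 96.5% and the guard cell markers at 112.5% to 195.7%.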

How the data were processed

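Poly(A) RNA of 3 control and 3 DMMTA seedling samples was sequenced with a directional library kit, per the labels' protocols. The authors deposited RPKM and FPKM per coding sequence, per the file headers, which name the units and do not define them. FPKM served as an alternative. DESeq2 appears in the submitters' processing notes without a version or role. Not given in the sources used here: genome build, read aligner, counter and any filters. Nothing in the labels says more of the replicates than that they are biological.

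Of 48350 rows per table, 1884 (3.90%) were displaced or emptied and left out. RPKM was summed per locus, because displaced rows show read numbers divided into fractions in 49.2% to 53.1% of cases, and rescaled to 1000000 (TPM). The files give no counts, so depth was estimated from 9 to 12 displaced rows per library that show reads and match 1 annotated coding length. The reads are not independent molecules. Rebuilt reads are approximate.

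The fit, by limma 3.58.1 in R 4.3.3, took loci that reached 1 TPM in 3 or more libraries and ran on log2(TPM + 0.5), with an intensity trend, no covariates and Benjamini-Hochberg adjustment. That scale understates changes of low genes. The planned count test was not used, as the files hold no counts. The fit was also run on simulated data whose spread was not matched to each gene's level, and no result here rests on that run. Names and sequences came from TAIR10.1, and of the 26551 loci 26444 matched it. Identity was computed with Biopython 1.88 and figures with matplotlib 3.10.9.

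The members and lists were chosen with earlier results of these data known. All 10 genes, every other aquaporin with a value that passed the filter, the largest called change in each direction of the regulator and pump lists and the 3 most alike loci are named. Marker lists are given by counts and summed levels. BETA-TIP, the pump HA7 and the markers SCR, MYB36, RBCS1A and AT1G22690 were named after their values were seen. Of the listed genes, 1 regulator and 1 pump subunit were dropped because the annotation did not match. Alternatives were other filters, pseudocounts (0.1 and 2), FPKM, scalings, limma-voom, a replicate block, a stricter threshold and leaving out libraries.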

Additional observations from a re-analysis of the deposited data

How the results depend on the processing

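Over all loci tested, 1979 fell and 3273 rose. Leaving out each library gave 1132 to 1577 and 2076 to 3138, with the lowest counts, 1132 and 2076, when DMMTA replicate 3 was omitted, and 2181 risen loci when DMMTA replicate 2 was. Omitting both replicate 3 libraries, a smaller sample, left 847 and 1843, and at an adjusted p under 0.01 they were 923 and 1989. Of all calls 62.3% were higher in DMMTA, against 50.8% by limma-voom on rebuilt reads (2731 fell and 2822 rose) and 56.9% with median-of-ratios scaling. Of the 9 aquaporins, 9 fell and 0 rose in the main comparison. With 1 library omitted 8 to 9 fell, with both replicate 3 libraries omitted 7, at an adjusted p under 0.01 8, and none rose in any alternative. The 8 with PIP2B and RD28 summed is out of 8. The alternatives with PIP2B and RD28 summed and with the mean over coding sequences were chosen after seeing the data. RD28, PIP2B, PIP1A, PIP2A, GAMMA-TIP, PIP3 and PIP1C were called in every alternative that gave them a value. Samples with the same replicate number had correlated deviations of 0.24, 0.33 and 0.08, and each sample correlated best with its own number, a hint from the data only, so the numbers were not taken to pair samples. With the replicate block 2242 loci fell and 3539 rose, and the block kept 9 aquaporins as fallen. Estimated depth did not limit these genes, RD28 having the fewest reads, and TIP2;3 and the other aquaporins of emptied rows could not be measured.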
